A study of Mus musculus with 2 samples.

Results

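Replication-dependent histone genes encode the bulk of the proteins around which newly copied DNA is wound, and their levels were followed here in mouse embryonic stem (ES) cell cultures sampled at 2 points of passaging. The set was chosen with earlier results of these data known and was defined by name. Every symbol in the deposited gene list that starts with Hist1h, Hist2h, Hist3h or Hist4h was taken, which gave 67 of 32285 genes. By the histone class read from the symbol they comprised 6 H1, 18 H2A, 18 H2B, 12 H3 and 13 H4 genes. The lines carried the genotype C3H/HeSn-Paf/J and came from XX, XO and XY embryos, with 3 independently derived lines of each sex and all 9 lines pooled in each library. Time 1 was an early passage, and time 2 was the same pool after 10 further passages, the interval over which cells with extra chromosomes were meant to build up. Both cultures grew in serum with leukaemia inhibitory factor (LIF) on irradiated mouse embryonic fibroblast feeders and were harvested with Accutase for 10x Chromium 3′ single-cell sequencing. Cells were not assigned to lines or sexes here, and with 1 library per time point there was no replicate check and no test: every difference compares these libraries, and the intervals given cover counting error only.

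Most messenger RNAs carry a poly(A) tail, but a replication-dependent histone mRNA ends in a short stem-loop that is bound by the stem-loop binding protein Slbp and cut without addition of a tail. These mRNAs are made as cells enter S phase, when H2A, H2B, H3 and H4 form new nucleosome cores and H1 binds the linker DNA between them, and are degraded when replication ends. ES cells divide fast and spend much of their cycle in S phase. A library primed from poly(A), such as those described here, therefore sees these mRNAs only where the tail, a copy with a tail or an internal run of A offers a priming site, and levels of different members do not measure their relative abundance.

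The sites below show why single members are hard to separate and where a run of A lies. Each line gives up to 14 bases of the annotated transcript before the stem-loop in lower case and the 16-base stem-loop in capitals, read 5′ to 3′ on the transcript strand and written with T.
Hist1h2ap: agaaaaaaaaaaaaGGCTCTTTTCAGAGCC
Hist1h2ao: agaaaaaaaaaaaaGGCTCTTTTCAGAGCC
Hist1h2ae: gtaaaaaaaacaaaGGCTCTTTTCAGAGCC
Hist2h2ac: cacgaatccaaaaaGGCTCTTTTTAGAGCC
Hist1h1e: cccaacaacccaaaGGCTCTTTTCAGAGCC
Hist1h1c: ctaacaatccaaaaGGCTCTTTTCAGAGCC
Hist1h2bj: acaccaaatccaaaGGCTCTTTTCAGAGCC
Hist1h3c: gctatttaaaaaaaGGCTCTTTTAAGAGCC
Hist1h4d: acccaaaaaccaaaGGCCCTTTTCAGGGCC
Hist1h4i: caatgctacttaaaGGCCCTTTTTAGGGCC
The stem-loop was found in the annotated transcripts of 46 of the 67 members (68.7%), against 99 of all 55450 annotated genes (0.179%). It came in 8 spellings, of which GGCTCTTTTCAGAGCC (26 members), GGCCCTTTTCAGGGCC (7 members) and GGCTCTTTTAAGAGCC (6 members) were the most frequent. No such letters lay in the annotated transcripts of Hist1h1b and Hist1h2bc, which says only that the annotated ends do not hold them. Hist1h2ap and its close copy Hist1h2ao share the same 30 bases, with an unbroken run of A up to the stem-loop.

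Many members share sequence with other genes, so their counts are uncertain. Where reads were placed was not examined, and shares of unique windows over whole transcripts are given instead. Of the 90-base windows in each member's transcript, 7.63% of those of Hist1h2ap (chr13:21833026-21833507, GRCm38, minus strand) and 7.16% of those of Hist1h2ao occurred in no other gene. The share was 68.1% for Hist1h2ae (chr13:23570517-23571220, minus strand), 99.1% for the H4 gene Hist1h4d (chr13:23581598-23582735, plus strand) and 100% for the linker histone genes Hist1h1b (chr13:21779883-21780625, minus strand) and Hist1h1a (chr13:23763666-23764406, plus strand). It was 0% for Hist2h2aa2, Hist2h3c1, Hist1h2bq and Hist1h2br on the shortest coding transcript, which was used for every member, while the longest gave 4.88% for Hist1h2bq and 13.7% for Hist1h2br. The 13 members with under 20% unique windows summed to 310 CPM (the UMIs of a gene over all UMIs of the same cells, on the usual CPM scale) in time 1 ES cells and 183 CPM in time 2 ES cells, most of it Hist1h2ap. The 20 members with at least 80% unique windows summed to 264 and 698 CPM, most of the time 2 sum being Hist1h1b. Hist1h2be, an H2B gene annotated from 23583670 to 23621124 on chromosome 13, overlaps Hist1h1e (23620629 to 23622558) on the same strand, so their counts are also uncertain. Same-strand overlaps with genes outside the members bear likewise on Hist3h2a (Trim17), Hist2h2bb (Gm42743), Hist1h2ac (Gm24991) and Hist2h2aa1 (Gm20634).

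The promoters of 3 members described below are shown as examples of the motifs that were counted. Windows reach from 250 bases before to 50 bases after the start in RefSeq (GRCm38.p6), in gene orientation, with 4 motifs in capitals on either strand: AAACACA (known as the H1 box), the octamer ATTTGCAT (bound by Pou2f1), the CCAAT box (CCAAT) and the TATA box (TATAAA). The first is Hist1h1b at chr13:21780576-21780875 (minus strand), the second Hist2h2ac, an H2A gene, at chr3:96220831-96221130 (minus strand) and the last Hist1h4d at chr13:23581318-23581617 (plus strand).
Hist1h1b: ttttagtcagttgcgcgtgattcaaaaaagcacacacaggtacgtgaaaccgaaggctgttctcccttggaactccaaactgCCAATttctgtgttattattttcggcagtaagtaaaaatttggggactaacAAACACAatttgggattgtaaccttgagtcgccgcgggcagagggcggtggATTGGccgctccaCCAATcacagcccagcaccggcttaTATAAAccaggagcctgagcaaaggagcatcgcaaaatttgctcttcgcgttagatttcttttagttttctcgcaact
Hist2h2ac: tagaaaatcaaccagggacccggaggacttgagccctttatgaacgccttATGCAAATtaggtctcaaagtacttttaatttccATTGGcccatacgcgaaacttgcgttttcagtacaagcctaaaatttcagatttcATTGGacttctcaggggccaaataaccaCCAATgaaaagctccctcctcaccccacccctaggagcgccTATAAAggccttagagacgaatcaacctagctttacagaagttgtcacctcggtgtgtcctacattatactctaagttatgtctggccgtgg
Hist1h4d: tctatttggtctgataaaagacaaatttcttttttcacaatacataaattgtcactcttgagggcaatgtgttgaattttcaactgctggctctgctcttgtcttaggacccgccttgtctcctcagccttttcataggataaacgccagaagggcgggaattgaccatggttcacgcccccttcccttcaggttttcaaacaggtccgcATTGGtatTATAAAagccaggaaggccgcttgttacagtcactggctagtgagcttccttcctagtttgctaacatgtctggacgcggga
A window of the same gene, by name and position, was found for 60 of the 67 members. The H1 box lay in 4 of 5 H1, 2 of 17 H2A and 2 of 16 H2B promoters, together 8 of 60 members (13.3%), and in 7.14% of all 27025 promoters of the same length. The octamer lay in 7 of 17 H2A and 6 of 16 H2B promoters, in none of the 5 H1, 10 H3 and 12 H4 promoters, and in 1.75% of all. The CCAAT box lay in 51 of 60 members (85.0%) against 37.9% of all promoters, but in only 3 of 12 H4 promoters. The TATA box lay in 34 of 60 members (56.7%) against 14.2% of all. No motif overlapped another in the printed windows, and a match is a description of letters, not of binding.

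After filtering, the libraries held 23210 (time 1) and 25483 (time 2) cells with a median of 44366 and 50386 UMIs. The libraries shared 192 of these cell barcodes. ES cells were taken as cells with a Pou5f1 UMI and more pluripotency than fibroblast marker UMIs, and numbered 22552 (97.2%) and 24629 (96.6%). The rule is broad and also took in cells of clusters led by genes of other cell types, described below. Over both libraries together it took in 28.6% of the cluster led by S100a4 and 78.8% to 86.8% of those led by Lhx1, Ramp2, Srgn and Lyz2. Fibroblast-like cells were the cells of the cluster led by S100a4 that did not meet the ES rule, and numbered 331 and 546. The 10 fibroblast markers summed in them to 17726 CPM at time 1 and 15064 CPM at time 2, against 270 and 284 CPM in ES cells. Because the ES cells were chosen partly by these markers, that difference is fixed in part by the definition and is given as a description. Cells with a called gain of a whole chromosome made up 9.87% of ES cells at time 1 and 80.1% at time 2.

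Histone CPM was higher at time 2, and most of the difference in CPM was in the linker histones. As said above, such a share does not measure the relative abundance of the classes. The 67 members summed to 870 CPM (exact 95% Poisson interval 869 to 872) in ES cells of time 1 and 1337 CPM (1335 to 1339) in those of time 2. This is a log2 ratio of 0.62 on the log2(CPM + 1) scale used throughout. In the same cells the S phase gene list described below went from 3256 to 3978 CPM, and the G2M list from 4983 to 5252 CPM. The part that this has in the histone difference was not tested. H1 stood at 193 CPM at time 1 and 594 CPM at time 2 (log2 ratio 1.61). H4 went from 73.9 to 118 CPM (0.66), H3 from 69.3 to 112 CPM (0.69) and H2B from 84.8 to 112 CPM (0.39). H2A was the exception, at 449 CPM at time 1 and 401 CPM at time 2 (−0.16), and without Hist1h2ap it stood at 154 and 246 CPM. The median over all 9377 genes tested was −0.05, and scaling the libraries by trimmed means or by median ratios moved it to 0.08 and 0.13. The H2A ratio was above 0 with median-ratio scaling (0.012). Within the cell cycle ranges described below, cut in each library on its own, it was 0.23 in the low range (376 and 442 CPM). The H2A ratio was −0.22 in the S range (596 and 512 CPM) and −0.67 in the G2M range (440 and 277 CPM). The sums of the other 4 classes stayed higher at time 2 under every alternative run.

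Among single members at 5 CPM or more in either library, 18 of 30 were more than 1.5-fold higher and 2 more than 1.5-fold lower at time 2, with a member median log2 ratio of 0.63. Of all genes tested by the same rule, 5.62% were higher and 11.7% lower. Of the 30 members, 7 reached the minimum at time 2 alone, and so had to be higher there. Among the 23 at 5 CPM or more at time 1, 13 were higher and 2 lower, against 4.84% and 12.0% of all genes with that minimum. With a 2-fold rule in place of 1.5-fold, 8 of the 30 members were higher, against 1.08% of all genes.

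All 5 H1 members at this level were higher at time 2. Hist1h1b, which encodes histone H1.5, was at 97.0 CPM at time 1 and 398 CPM at time 2 (log2 ratio 2.02), the highest member of all at time 2. Hist1h1e was at 34.1 and 75.5 CPM (1.12), and Hist1h1a at 25.6 and 53.1 CPM (1.03). Hist1h1d was at 21.1 and 42.9 CPM (0.99) and Hist1h1c at 15.0 and 23.7 CPM (0.63), so Hist1h1b alone made up most of the H1 difference in CPM.

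H2A genes went in both directions. Hist1h2ap was the highest member at time 1 and was at 295 CPM there and 155 CPM at time 2 (−0.92). Hist1h2ae was at 113 and 163 CPM (0.52, but −0.041 within the G2M range), Hist2h2ac at 6.54 and 23.7 CPM (1.71), and Hist1h2an at 1.58 and 11.3 CPM (2.25). Hist1h2an also holds few unique windows (16.1%), so its count is uncertain, and where its reads were placed was not examined. The other member called lower was Hist3h2ba, an H2B gene on chromosome 11, at 7.42 and 4.47 CPM (−0.62).

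The H2B, H3 and H4 members are given by class. In H2B, Hist2h2bb was at 7.58 and 19.4 CPM (1.25), Hist1h2bj at 14.4 and 17.8 CPM (0.29), Hist1h2bm at 11.9 and 18.3 CPM (0.59) and Hist1h2bc at 13.5 and 9.46 CPM (−0.47). In H3, Hist1h3c was at 19.9 and 39.3 CPM (0.94), Hist1h3e at 13.4 and 27.3 CPM (0.98), Hist1h3d at 9.90 and 13.9 CPM (0.45) and Hist1h3a at 9.09 and 8.44 CPM (−0.10). The small difference in Hist1h3a changed sign under 5 of the alternatives run. In H4, Hist1h4d was at 21.2 and 66.8 CPM (1.61), Hist1h4i at 29.2 and 23.8 CPM (−0.28) and Hist1h4h at 7.30 and 8.63 CPM (0.21, but −0.0065 within the G2M range).

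**Figure D1:**
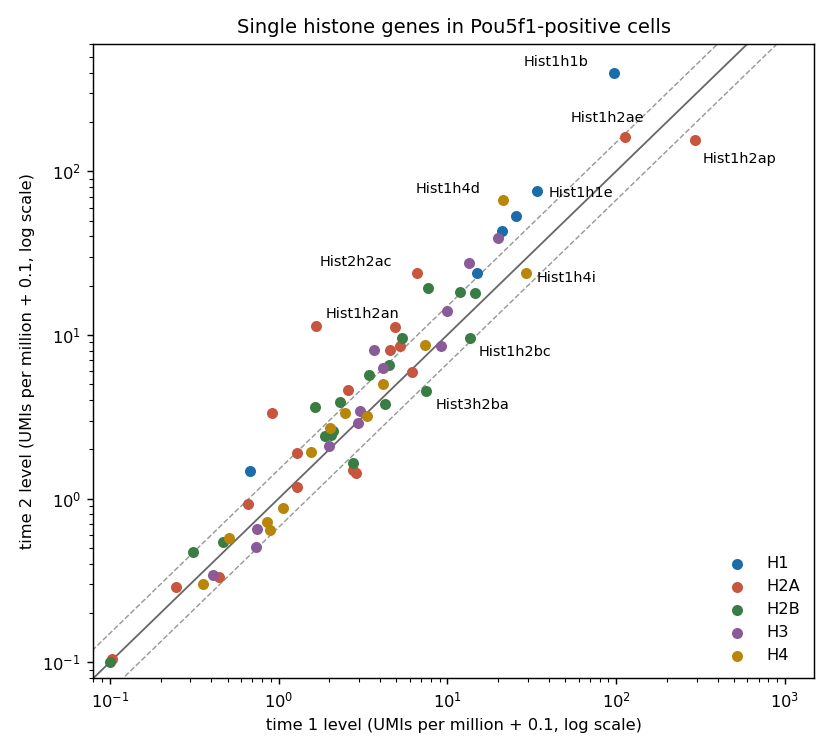
Each point is 1 histone gene, with its CPM in time 1 ES cells on the horizontal and in time 2 ES cells on the vertical axis, both log scaled, coloured by class, with 0.1 added to each level, a solid line of equality and dashed lines at 1.5-fold. Hist1h1b (97.0 and 398 CPM) and Hist1h4d (21.2 and 66.8 CPM) lie above the diagonal, and Hist1h2ap (295 and 155 CPM) lies below it.

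The members are set here beside all other genes tested on the same chromosomes, near or far from the histone clusters. On chromosome 13, which holds 54 members, the 26 members tested had a median log2 ratio of 0.61 and the 324 other genes tested one of −0.03. On chromosome 3 the 3 members tested had a median of 1.25 and the 448 other genes one of −0.10. Among ES cells, 0.115% at time 1 and 0.142% at time 2 were scored with an extra chromosome 13.

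The make-up of the cultures also differed between the libraries, so the time comparison was repeated inside clusters made without the histone genes. Of 16 clusters, 8 held at least 100 cells of each library, 1 of them being led by S100a4 and holding the feeders. Inside these 8, the histone sum was higher at time 2 in all 8 (log2 ratio 0.10 to 0.76), as was H1 (0.93 to 1.85), and H2A was lower in all 8 (−0.76 to −0.02). The S100a4 cluster was at 833 and 910 CPM, but its make-up differed between the libraries. Of its cells, 331 of 550 at time 1 and 546 of 678 at time 2 did not meet the ES rule. Its fibroblast-like cells alone were lower at time 2, at 898 and 868 CPM. Hist1h2ap was lower in all 8 (−1.60 to −0.38), and Hist1h1b (1.18 to 2.38) and Hist1h4d (1.14 to 1.54) were higher in all 8. Between 8 and 19 members were called higher in each of these clusters and 1 or 2 lower, of 23 to 32 members tested. Of all genes tested inside them, 1.13% to 4.50% were called higher and 1.33% to 9.22% lower. Members at 5 CPM or more only at time 2 had to be higher. Of the 20 to 25 members per cluster at that level at time 1, between 6 and 14 were called higher and 1 or 2 lower, against 0.899% to 3.47% and 1.35% to 9.45% of all genes with that minimum. In ES cells with no called chromosome gain the log2 ratio of the sum was 0.41, and without the 2 time 1 clusters that had Spry2 among their leading genes it was 0.51.

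Levels differed more between clusters of one library than between the libraries as a whole. At time 1 the cluster sums ran from 340 CPM, in 69 cells led by Krt18 with a median of 352626 UMIs, to 1802 CPM in a cluster led by B020031M17Rik. The 2 clusters with Spry2 among their leading genes, led by Ulk4 and Rpgrip1, stood at 698 and 463 CPM. They held 3646 and 2297 cells at time 1, with a median of 25764 and 37920 UMIs, but 18 and 2 cells at time 2. The largest time 1 cluster, led by Rhox9, was at 1016 CPM, and the largest time 2 cluster, led by 1700097N02Rik, was at 1391 CPM. The part that differences in depth have in these levels was not tested.

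**Figure D2:**
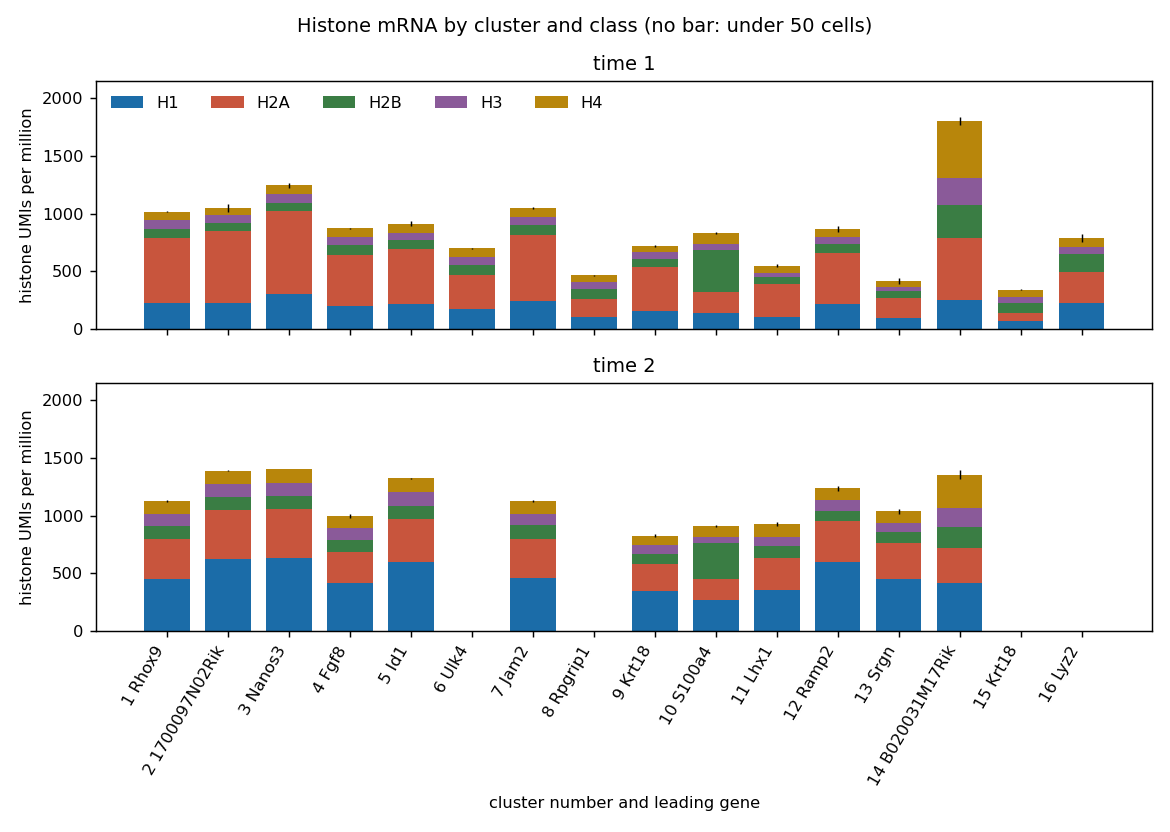
Stacked bars give the CPM of each histone class (vertical axis) in each cluster, 1 panel per library, with the exact Poisson interval of the sum; clusters are named by number and leading gene, and have no bar where they hold under 50 cells. The cluster led by B020031M17Rik is the highest at time 1 (1802 CPM), and it stands at 1356 CPM at time 2.

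Histone UMIs were unevenly spread over cells. With every ES cell thinned to 10000 UMIs, the median cell held 7 histone UMIs at time 1 and 12 at time 2, and the cells at the 5th and 95th percentiles held 1 and 22 at time 1 and 1 and 32 at time 2. The share of cells with 20 or more was 7.58% at time 1 and 26.9% at time 2. The share with none was close in the libraries, at 2.66% and 3.63%. The time 2 cells were thus not shifted by a fixed amount: the lower ends of the distributions were alike and the upper end was higher.

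Classes varied together over cells. Cells were split by their thinned H1 count into the low end (0 UMIs in 6469 time 1 cells, at most 2 in 8326 time 2 cells) and the high end (more than 3 in 3789 cells, more than 9 in 5795 cells). H2A was at 209 CPM in the low and 866 CPM in the high end at time 1 (log2 ratio 2.05), and at 118 and 731 CPM at time 2 (2.62). The ratios were smaller for H3 (1.20 and 1.88), H4 (1.01 and 1.67) and H2B (0.90 and 1.75). Hist1h2bc (0.21 and 0.70) and Hist3h2ba (0.32 and 0.75) differed less between these cells than the class sums did. These cells come from the same libraries, so the ratios are a description without a test.

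Cell cycle ranges were cut from 2 gene lists that held no member, histone processing or chaperone gene, although the G2M list held Cenpa, the centromeric H3 variant. They were counted at 10000 UMIs per cell, and the cuts were made in each library on its own. The S cut lay at 36 UMIs at time 1 and 44 at time 2, and the G2M cut at 54 and 57. Cells in the highest of 3 equal parts for the G2M list formed the G2M range, the remaining cells in the highest of 3 equal parts for the S phase list the S range, and all others the low range. They held 7105, 5419 and 10028 cells at time 1 and 7940, 6369 and 10320 at time 2. They are ranges of a score and not types: at time 1, 2474 cells lay within 1 UMI of the S cut and 1339 within 1 UMI of the G2M cut, and at time 2 these were 2406 and 1455.

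The histone sum was highest in the S range of both libraries, but the range that stood lowest was not the same. At time 1 the sum was 764 CPM in the low, 1091 CPM in the S and 854 CPM in the G2M range. At time 2 it was 1438, 1683 and 983 CPM. The S over low log2 ratio was thus 0.51 at time 1 and 0.23 at time 2, while S over G2M gave 0.35 and 0.78. Within the low range alone the time 2 over time 1 ratio of the sum was 0.91, within the S range alone 0.63 and within the G2M range alone 0.20. Because each library had its own cuts, ranges of the same name do not hold cells of like scores. In the low range the S phase list was at 2938 CPM at time 1 and 3667 CPM at time 2.

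H1 and H2A carried the S range difference. At time 1, H1 was at 165 CPM in the low range and 252 CPM in the S range (0.61), and H2A at 376 and 596 CPM (0.66). H3 was at 65.0 and 73.8 CPM (0.18), H4 at 73.0 and 79.7 CPM (0.12) and H2B at 85.3 and 89.4 CPM (0.07), and the sign of the H2B value changed under 2 alternatives at time 1 and under 1 at time 2. At time 2 the S over low ratios were 0.32 for H1, 0.21 for H2A, 0.10 for H2B and 0.06 for both H3 and H4.

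Few members passed 1.5-fold between the S and low ranges, but few genes of any kind did. At time 1, 4 of 25 members were higher in the S range, against 0.281% of all genes tested. Of the 21 members at 5 CPM or more in the low range it was also 4, against 0.276% of all genes with that minimum. The 4 were Hist1h1b (76.9 CPM in the low, 138 CPM in the S range), Hist1h2ap (247 and 403 CPM), Hist1h2ae (92.6 and 148 CPM) and Hist2h2ac (5.04 and 8.71 CPM). Only 1 of 25 members was called without the 2 clusters with Spry2 among their leading genes, where the log2 ratio of the sum was 0.37, against 0.205% of all genes. With phases assigned by scanpy 9 of 24 members were called, against 1.26% of all genes. At time 2, 0 of 31 members passed in that direction, against 0.16% of all genes (0 of 30 against 0.15% with the minimum in the low range), the largest ratios being those of Hist2h2ac (0.47), Hist2h2aa1 (0.38) and Hist1h1b (0.37). No member was called lower in the S range, against 0.572% of all genes at time 1 and 0.353% at time 2. The smallest ratios, by the mean of both times, belonged to Hist1h3a (−0.09 and −0.06), Hist3h2ba (−0.12 and −0.01), Hist1h4i (−0.03 in both), Hist1h2bj (0.02 and 0.05) and Hist1h3i (−0.03 and 0.11).

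Against the G2M range the picture was the reverse. At time 2, 13 of 30 members were higher in the S than in the G2M range, against 0.34% of all genes. Of the 26 members at 5 CPM or more in the G2M range it was 11, against 0.274% of all genes with that minimum. Among the 13 were Hist1h1b (542 and 277 CPM, log2 ratio 0.96), Hist2h2ac (33.5 and 16.9 CPM, 0.95), Hist1h2ae (210 and 110 CPM, 0.92), Hist1h2ap (195 and 103 CPM, 0.91), Hist1h2bc (12.2 and 6.16 CPM, 0.88) and Hist1h1a (69.0 and 38.3 CPM, 0.83). At time 1, 0 of 25 passed in that direction, against 0.139% of all genes, although Hist1h2bc (0.58), Hist1h1b (0.53) and Hist1h2ap (0.50) came near. No member was called lower in the S range in either library, against 0.823% and 0.725% of all genes (0.829% and 0.731% with the minimum in the G2M range).

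A grid of both scores, each in 5 equal parts, showed the same contrast. At time 1 the sum went from 555 CPM in cells lowest for both lists to 1109 CPM in cells highest for the S list and lowest for the G2M list, and in cells highest for the G2M list it lay between 730 and 959 CPM. At time 2 cells highest for the G2M list lay between 871 and 923 CPM whatever their S score, and cells lowest for the G2M list lay between 1344 and 1835 CPM. The time 1 grid includes the 2 clusters with Spry2 among their leading genes (698 and 463 CPM), which held 18 and 2 cells at time 2. Without them 1 of 25 members, in place of 4, passed 1.5-fold between the S and low ranges at time 1.

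**Figure D3:**
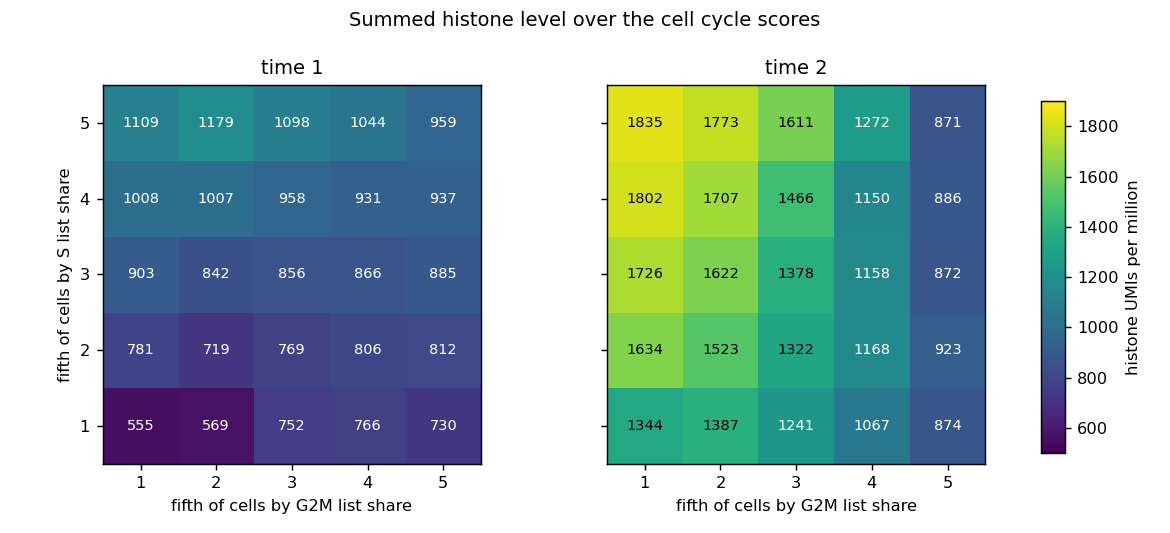
Summed histone CPM (colour) of ES cells in a grid of 5 equal parts of the S phase list share (vertical axis) by 5 equal parts of the G2M list share (horizontal axis), 1 panel per library. At time 1 the sum changes mainly along the S axis (555 to 1109 CPM in cells lowest for the G2M list), and at time 2 mainly along the G2M axis (1835 to 871 CPM in cells highest for the S list). The time 1 panel includes the clusters with Spry2 among their leading genes.

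ES cells were also split by their thinned histone count, and the highest of 4 parts was set beside the lowest. At time 2 the highest part had 4681 CPM of the G2M list against 6083 CPM in the lowest, and 4249 against 3829 CPM of the S phase list. At time 1 these were 4941 against 5065 CPM and 3557 against 3023 CPM. Past 1.5-fold, 5 of 41 G2M genes were lower in the highest part at time 2 and 0 of 41 at time 1, and 0 of 38 S phase genes passed in either library. Of all genes tested outside the members, 8 were higher and 55 lower of 8837 at time 2, and 20 higher and 54 lower of 9321 at time 1. Ube2c, an enzyme that marks mitotic proteins for destruction, was one of the 5, at 343 against 668 CPM. Pcna, the sliding clamp of DNA polymerases, did not pass 1.5-fold, at 261 against 197 CPM at time 2 and 247 against 195 CPM at time 1. Slbp did not pass either, at 197 against 152 CPM and 202 against 171 CPM. The largest log2 ratios at time 1 were those of Gm21761 (1.97), Gm8300 (1.91) and B020031M17Rik (1.88), leading genes of the B020031M17Rik cluster. The lowest were those of Mgp (−1.78), Acta2 (−1.69) and S100a4 (−1.38), leading genes of the S100a4 cluster. At time 2 E330020D12Rik (0.88) was highest, and Krt8 (−1.14) and Krt18 (−1.08) were lowest. The part that cell type has in this split was not tested.

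Fibroblast-like cells kept a different set of histone mRNAs. Irradiated feeders do not divide, and in them H2B was the highest class by CPM. It was at 459 CPM (interval 450 to 468) at time 1 and 368 CPM at time 2, against 84.8 and 112 CPM in ES cells. H1 was at 138 and 217 CPM, H2A at 151 and 139 CPM, H3 at 39.3 and 49.6 CPM and H4 at 112 and 93.2 CPM. Their total, 898 and 868 CPM, was thus close to that of time 1 ES cells although its make-up was not.

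**Figure D4:**
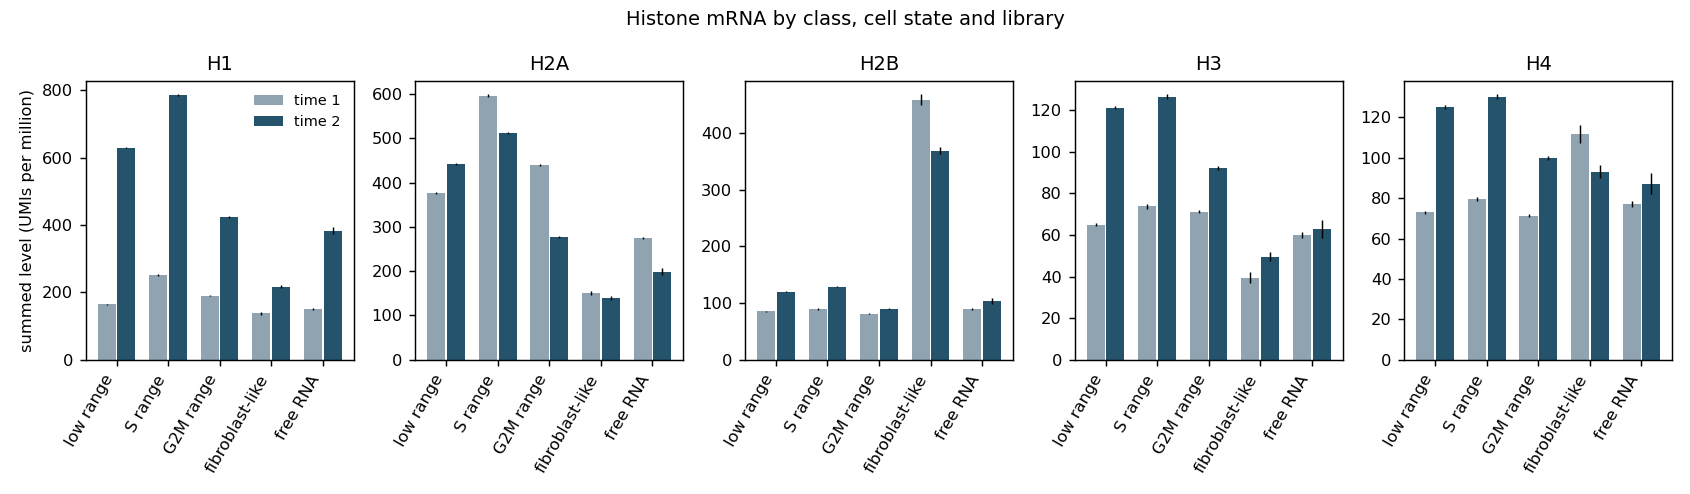
Bars give the summed CPM (vertical axis) of each histone class, 1 panel per class, coloured by library, with exact Poisson intervals. They stand for 3 cell cycle ranges of ES cells, fibroblast-like cells and barcodes of low UMI count, labelled free RNA. H1 is higher at time 2 in every ES range (252 and 785 CPM in the S range), and fibroblast-like cells stand out in the H2B panel (459 and 368 CPM).

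Hist1h2bc (chr13:23684199-23692908, plus strand) accounted for most of the H2B level in these cells. It was at 424 CPM in fibroblast-like and 13.5 CPM in ES cells at time 1 (log2 ratio 4.87), and at 326 and 9.46 CPM at time 2 (4.97). At 10000 UMIs per cell a Hist1h2bc UMI was seen in 86.1% (exact binomial interval 81.9% to 89.6%) and 82.2% (78.8% to 85.3%) of fibroblast-like cells and in 12.3% and 8.79% of ES cells. With all UMIs these shares were 97.0% and 98.2% in fibroblast-like cells and 39.98% and 35.1% in ES cells, at median depths of 52260 and 57788 against 44252 and 50407 UMIs. Barcodes of at most 2000 UMIs were taken as free RNA. The deposited barcodes start at 500 UMIs at time 1 and 524 at time 2, and what these low barcodes hold was not tested. In them Hist1h2bc was at 15.3 and 25.2 CPM, against the 13.5 and 9.46 CPM of ES cells. How much of the ES level is free RNA, or comes from the ES cells that fell in the feeder cluster, was not tested.

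Other members higher in fibroblast-like cells at both times were fewer. Hist1h1c, a linker histone gene, was at 91.6 and 68.6 CPM there (log2 ratios 2.53 and 1.495). Hist1h4h was at 48.8 and 23.2 CPM (2.58 and 1.33), Hist3h2a at 20.1 and 16.03 CPM against 2.80 and 1.33 CPM in ES cells (2.47 and 2.87), and Hist2h3c2 at 6.20 and 6.13 CPM against 0.311 and 0.242 CPM (2.46 and 2.52). Hist1h4i was at 41.4 and 41.6 CPM (0.49 and 0.78) and Hist1h2ac at 15.4 and 12.1 CPM (1.21 and 0.93).

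The members that led in ES cells were lower in fibroblast-like cells. Hist1h1b was at 20.6 and 96.4 CPM (log2 ratios −2.18 and −2.03), Hist1h2ap at 74.7 and 53.2 CPM (−1.97 and −1.53) and Hist1h2ae at 24.8 and 39.4 CPM (−2.14 and −2.02). Hist1h1b had a UMI in 17.2% and 30.4% of fibroblast-like cells at 10000 UMIs, against 46.9% and 78.4% of ES cells. Pou5f1, which feeders should lack, was at 168 and 222 CPM in fibroblast-like cells against 695 and 777 CPM in ES cells. Its UMIs were seen in 63.4% and 52.4% of fibroblast-like cells at 10000 UMIs, and in 95.8% and 84.2% with all UMIs. The fraction of Pou5f1 left was thus about as large as that of Hist1h1b, Hist1h2ap and Hist1h2ae, and how much of these members' level in fibroblast-like cells is free RNA was not tested.

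Counted over members at 5 CPM or more in either group, 9 of 26 were called higher and 15 lower in fibroblast-like cells at time 1, against 29.3% higher and 31.3% lower of all genes. At time 2, 7 of 31 were higher and 22 lower, against 31.3% and 30.9% of all genes. Of the members at 5 CPM or more in ES cells, 6 of 23 were higher at time 1, against 20.1% of all genes with that minimum, and 5 of 29 at time 2, against 20.4%. By that minimum 15 of 23 and 22 of 29 were lower, against 36.0% and 36.4% of all genes. The share of members called higher was thus near that of all genes by either minimum.

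**Figure D5:**
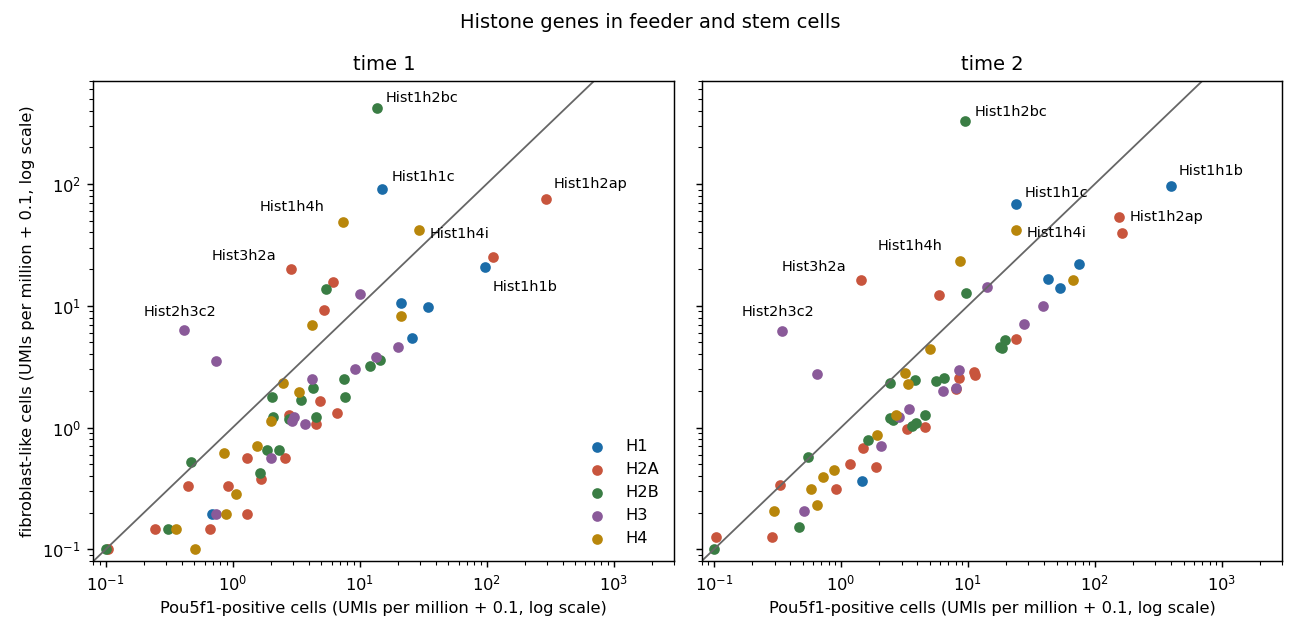
CPM of each histone gene in ES cells (horizontal axis) and in fibroblast-like cells (vertical axis), both log scaled with 0.1 added, 1 panel per library, with a line of equality. Hist1h2bc lies far above the diagonal (13.5 and 424 CPM at time 1), and Hist1h1b, Hist1h2ae and Hist1h2ap lie below it.

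The annotated transcript ends give a partial description of which members were seen where. An AATAAA or ATTAAA signal lay in the last 40 bases of 17 members, of which 8 at time 1 and 6 at time 2 were at 5 CPM or more in fibroblast-like or ES cells. Of these, 5 and 4 were more than 1.5-fold higher in fibroblast-like cells. Of the 50 members without such a signal, 18 and 25 reached that level and 4 and 3 were higher, against 29.3% and 31.3% of all genes. Members that reached that level only in fibroblast-like cells had to be higher there. Of those at 5 CPM or more in ES cells, 3 of 6 and 3 of 5 with a signal were higher, and 3 of 17 and 2 of 24 without one, against 20.1% and 20.4% of all genes. Hist1h2bc is one of those without such a signal at its annotated end. A run of 4 or more A touched the stem-loop in 9 members, which had a median of 5.12 CPM at time 1 and 8.47 CPM at time 2 in ES cells, against 3.34 and 4.47 CPM in the 37 with a shorter run. The 9 summed to 345 and 254 CPM, of which Hist1h2ap alone gave 295 and 155 CPM. Hist1h2ao, with the same run and 7.16% unique windows, was at 0.340 and 0.230 CPM in ES cells outside the cluster led by B020031M17Rik. Across the 46 members with a stem-loop, the number of A in the 14 bases before it went with the level in ES cells (Spearman rho 0.41 at time 1 and 0.46 at time 2). Across all 67 members the share of unique windows did so too (0.39 and 0.40). These points share libraries and depth, and near copies share sequence, so these values only describe the set.

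A small group of 2-cell-like ES cells had the highest histone level of all clusters at time 1. The cluster led by B020031M17Rik held 108 ES cells at time 1 and 57 at time 2 at a median of 43863 and 45440 UMIs, and the 7 markers of the 2-cell state, by which it was picked, summed in it to 1428 against 1.35 CPM and to 727 against 0.485 CPM. Its histone sum was 1801 CPM (1765 to 1837) against 866 CPM in all other ES cells at time 1, and 1355 CPM (1316 to 1394) against 1337 CPM at time 2. The S phase list was lower in it than in the other ES cells, at 2751 against 3258 CPM at time 1 and 3477 against 3979 CPM at time 2, and the G2M list nearly level, at 4890 against 4983 and 5352 against 5252 CPM.

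H4 had the largest log2 ratio of the 5 classes at both times. It was at 494 CPM in the 2-cell-like cells against 72.0 CPM in the others at time 1 (log2 ratio 2.76) and at 289 against 117 CPM at time 2 (1.29). One gene carried most of it: Hist1h4i (chr13:22040636-22041362, minus strand) was at 393 CPM (377 to 411) against 27.5 CPM at time 1 (3.79) and at 205 CPM (190 to 220) against 23.4 CPM at time 2 (3.08). Without Hist1h4i the histone sum was 1408 against 838 CPM at time 1 (0.75), but 1150 against 1313 CPM at time 2 (−0.19). Its stem-loop, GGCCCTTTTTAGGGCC, is shared by 2 of the members, and its annotated end carries an AATAAA or ATTAAA signal.

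The H3 and H2B sums were also higher in the 2-cell-like cells at both times. H3 was at 237 against 68.5 CPM (1.78) at time 1 and 167 against 112 CPM (0.57) at time 2, and H2B at 280 against 83.9 CPM (1.73) and 179 against 111 CPM (0.68). Hist1h3a, low in the S range comparison, was at 50.1 against 8.89 CPM (2.37) and 25.3 against 8.40 CPM (1.48). Hist3h2ba was at 46.4 against 7.24 CPM (2.52) and 16.8 against 4.44 CPM (1.71), Hist1h3c at 78.8 against 19.7 CPM (1.95) and 56.1 against 39.2 CPM (0.51), and Hist1h2bj at 63.0 against 14.2 CPM (2.07) and 38.2 against 17.8 CPM (1.06). H1 and H2A were not higher at both times: H1 was at 248 against 193 CPM (0.36) and 415 against 595 CPM (−0.52), and H2A at 542 against 449 CPM (0.27) and 305 against 401 CPM (−0.39).

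By the 1.5-fold rule 35 of 46 members were higher and 0 lower in the 2-cell-like cells at time 1, against 11.0% higher and 7.81% lower of all genes. At time 2, 11 of 37 were higher and 3 lower, against 9.94% and 6.97% of all genes. These counts lean on the minimum: 23 of the 46 members at time 1 and 8 of the 37 at time 2 reached 5 CPM only in the 2-cell-like cells, and had to be higher there. Of the 23 members at 5 CPM or more in the other ES cells at time 1, 13 were higher and 0 lower, against 5.61% and 8.44% of all genes with that minimum. At time 2 it was 4 higher and 3 lower of 29, against 5.07% and 7.48% of all genes. With 57 cells at time 2 the counts behind single members were small, for example 7 UMIs of Hist1h4b.

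Genes that make or handle histone mRNA and protein were compared between the time points by list. Of 25 histone mRNA processing genes 2 were called higher at time 2 and 0 lower, against the 5.62% and 11.7% of all genes: Eri1, an exonuclease that trims the stem-loop end, at 35.1 and 59.4 CPM (0.74), and Coil, the coilin of Cajal bodies, at 25.4 and 41.3 CPM (0.68). Slbp itself was at 189 and 176 CPM (−0.10). Of 14 tested regulators of histone transcription 0 were called. Of 16 histone chaperones 3 were higher and 0 lower, beside the same 5.62% and 11.7%, with a list median log2 ratio of 0.38 against −0.05 over all genes: Nasp, which holds free H3 and H4, at 679 and 1136 CPM (0.74), Supt16, a FACT subunit, at 292 and 469 CPM (0.68), and the importin Ipo4 at 24.8 and 38.4 CPM (0.61). Eri1 lies on chromosome 8, and Supt16 and Ipo4 on chromosome 14. Gains of these chromosomes were called in 5.01% and 0.324% of ES cells at time 1 and in 51.9% and 19.8% at time 2. Of 11 replication-independent histone genes 1 was lower, H1f0, at 36.4 and 23.4 CPM (−0.62), and H2afz, the highest of them, was at 2382 and 3169 CPM (0.41).

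Across the cycle ranges Slbp and the cyclin E gene Ccne1, neither of which is in the S phase or G2M list, were highest in the S range at both times. Slbp was at 182 CPM in the low, 258 CPM in the S and 155 CPM in the G2M range at time 1, and at 163, 250 and 144 CPM at time 2. Ccne1 was at 151, 217 and 142 CPM at time 1 and 211, 308 and 187 CPM at time 2. Slbp and Ccne1 were called higher in the S than in the G2M range at both times, where 0.139% and 0.34% of all genes were. Ccne2 is in the S phase list, so its level in the S range is fixed in part by how the range was cut. Casp8ap2, which takes part in histone mRNA processing, was at 47.4 CPM in the low and 73.6 CPM in the S range at time 1 (0.62), and at 71.2 and 101 CPM at time 2 (0.50), which did not pass 1.5-fold. Chaf1b, a subunit of the replication-coupled assembly factor CAF-1, was called higher in the S than in the G2M range at both times (0.63 and 0.69). H2afx, the damage-linked H2A variant, went the other way at both times (−0.72 and −0.61).

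In fibroblast-like cells 18 of 25 processing genes and 12 of 16 chaperones were called lower and 0 higher at both times, against 31.3% and 30.9% of all genes lower, Slbp being at 71.6 CPM in each library. Of 11 replication-independent histone genes 7 were called lower there at time 1 and 6 at time 2, and 1 and 2 higher, against 29.3% and 31.3% of all genes higher. H2afj, an H2A variant, was higher at both times, at 620 and 508 CPM against 224 and 174 CPM in ES cells. In the 2-cell-like cells 0 of 16 chaperones were called in either direction at either time, against 11.0% and 9.94% of all genes higher. Gtf2b, a general transcription factor, was the only regulator called higher in them at both times (1.25 and 1.21).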

How the data were processed

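Per time point the authors deposited 1 matrix of raw UMI counts (genes by barcodes). They were made with bcl2fastq 2.20.0.422 and Cell Ranger 6.1.2 on mm10/GRCm38, per the submitters' processing notes; the annotation version is not given in the sources used here. The members and the gene lists were chosen with earlier results of these data known. Genes were placed with the GENCODE M21 annotation of GRCm38, which matched 32235 of 32285 gene IDs. Of 145288 and 52242 deposited barcodes (1735810403 and 1843588321 UMIs), barcodes were kept as cells at 10% or more of the 99th percentile of the top 20000, if they had 1000 genes or more and no more than 10% of UMIs from mitochondrial genes. An automatic doublet caller marked 0 and 1 cells, so the highest 10% of scores (2526 and 2766 cells) were removed. Counts were summed over cells and divided by all UMIs (CPM). Ratios are log2(CPM + 1), genes needed 5 CPM in either group, and called means past 1.5-fold. Clusters used 2000 variable genes without the members, 30 components, 15 neighbours and resolution 0.5. Genes named in the text are the 3 highest of each class, the 5 largest and smallest time and S range ratios, and pathway genes past 1.5-fold or highest in their list; other members, among them those of the fibroblast-like and 2-cell-like comparisons, were named after their values were seen. The alternatives in the closing section changed the scaling, filters, thresholds, pseudocount, cells and cycle scoring. Scripts were tested on simulated data. Python 3.11.15, numpy 2.4.6, scipy 1.17.1, pandas 2.3.3, scanpy 1.11.5 (doublet scores, clusters), igraph 0.11.9, and R 4.3.3 with edgeR 4.0.16 (trimmed mean scaling factors only, no test) were used.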

Additional observations from a re-analysis of the deposited data

Results flagged for a closer look

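Some values had opposite signs in the libraries, with 1 library each, so the difference between the time points was not tested. The log2 ratio of the S over the low range was −0.079 at time 1 and 0.18 at time 2 for Hist1h2bc, and that of the S over the G2M range was −0.13 and 0.40 for Hist1h2ac. In fibroblast-like over ES cells, the H4 sum had ratios of 0.59 and −0.33 and Hist2h2aa1 of 0.73 and −1.45.

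In the 2-cell-like over the other ES cells, the H1 sum had log2 ratios of 0.36 at time 1 and −0.52 at time 2, and the H2A sum 0.27 and −0.39. Single members followed: Hist1h2ap 0.073 and −0.33, Hist1h2ae 0.36 and −0.59, Hist1h2ab 0.72 and −0.69, Hist1h1e 0.43 and −0.33, and Hist1h4d 0.51 and −0.49. The other ES cells held more of these mRNAs at time 2, except for Hist1h2ap and the H2A sum.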

How the results depend on the processing

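No paired analysis was possible because each time point had 1 library. The log2 ratio of the histone sum between time points (0.62) was 0.75 with trimmed mean and 0.79 with median-ratio scaling. It was 0.64 with cells from 5000 UMIs, 0.57 with doublets kept, 0.61 in all filtered cells and 0.68 with shares averaged per cell. The ratio was 0.63 in the S, 0.91 in the low and 0.20 in the G2M range, each cut per library. It was 0.41 in cells without a called gain and 1.07 over members with mostly unique windows. Those members, a wider set than the 20 at 80% or more, include Hist1h1b but not Hist1h2ap. Removing the highest 20% of doublet scores gave 0.63 and leaving out the clusters with Spry2 among their leading genes 0.51; these, the G2M range, leaving out clusters led by genes of other cell types, and asking for the minimum level in the group compared against alone, were chosen after seeing the data. The 18 members called higher became 8 at 2-fold, 13 with that last minimum and 12 in the G2M range, and lay between 13 and 23 under the other alternatives. The 2 called lower became 1 with either scaling, in the S range, in the low range and in cells without a gain, 4 with no CPM minimum and 0 at 2-fold.

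The S over low ratio of the sum (0.51 at time 1, 0.23 at time 2) was 0.46 and 0.21 with trimmed mean scaling, 0.47 and 0.22 with median-ratio scaling, 0.47 and 0.22 with doublets kept, 0.48 and 0.19 per cell, 0.47 and 0.22 with cuts at the highest of 4 parts, 0.62 and 0.27 with scores from all UMIs, 0.69 and 0.23 with scanpy phases, and 0.54 and 0.21 without the highest 20% of doublet scores. At time 1 it was 0.46 from 5000 UMIs and 0.37 without the Spry2 clusters; at time 2 it was 0.27 in all filtered cells and 0.22 without other cell types. The 4 members called at time 1 became 0 at 2-fold, 1 without the Spry2 clusters, 3 from 5000 UMIs, 6 with scores from all UMIs and 9 with scanpy phases. They became 5 in all filtered cells and 5 without the highest 20% of doublet scores. In all filtered cells 1 member was called lower in the S range at time 1 and 1 at time 2, against 2.73% and 3.32% of all genes.

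Signs changed in 12 cases among class sums and single members. Hist1h3a between time points was 0.024 with trimmed mean scaling, 0.062 with median-ratio scaling, 0.037 in the S range, 0.0073 in the low range and 0.090 without a gain; the H2A sum was 0.012 with median-ratio scaling and 0.23 in the low range. In the G2M range Hist1h2ae was −0.041 and Hist1h4h −0.0065. The H2B sum in S over low was −0.030 from 5000 UMIs and −0.18 in all filtered cells at time 1, and −0.052 in all filtered cells at time 2. The causes were not tested. Protein identity within classes was not computed. Cells added by the looser filters carry no doublet score.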

Other observations

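Members known from the male germ line stood at a few CPM or less in ES cells, and were chosen here for that background after their values were seen. Hist1h1t, the testis linker histone gene, was at 0.581 CPM at time 1 and 1.38 CPM at time 2. Hist1h2aa was at 0.813 and 3.24 CPM and its neighbour Hist1h2ba at 0.211 and 0.369 CPM. In the 2-cell-like cells Hist1h2aa was at 9.05 CPM against 0.775 CPM in the other ES cells at time 1 (log2 ratio 2.50) and at 8.23 against 3.23 CPM at time 2 (1.13). Hist1h2ba was at 3.58 against 0.195 CPM and 2.94 against 0.363 CPM, and Hist1h1t at 1.70 against 0.576 CPM and 0.882 (3 UMIs) against 1.38 CPM.

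Few members carried the set. At 100 CPM or more stood 2 members at time 1 and 3 at time 2, at 10 CPM or more 14 and 18, and at 1 CPM or more 50 and 52.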
